A study of Mus musculus with 3 samples.

Results

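The cells described here are the 203 cells of cluster 5 with myeloperoxidase (Mpo) transcripts and almost no transcripts of the complement gene C1qb, called Mpo cells below. They were selected on 2 measured values, Mpo at 4 or more and C1qb below 4 UMIs per 10,000 UMIs of the cell, where a UMI is a tag that marks 1 captured RNA molecule. They made up 12.9% of the 1572 cells of cluster 5 (95% exact binomial interval 11.3 to 14.7) and 2.12% of all 9562 cells. The rest of cluster 5 consisted of 651 cells with C1qb only (C1qb cells), 714 cells with neither gene at that level and 4 cells with both. Because the clusters and the classes were made from the same counts, all differences between classes are descriptions, and no test was made.

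The study followed endothelial cells of the adult mouse heart that acquire blood-forming capacity beside embryonic stroma. Endothelial cells were sorted as CD31+VE-Cad+ cells without CD41, CD45, PDGFRA and PDGFRB. One portion was used fresh and the others were co-aggregated for 24, 48, 72 or 96 h with Mesp1der PSCs of E11.5 embryos, which are PDGFRA+ stromal cells of the aorta-gonad-mesonephros region, in medium with 20% fetal calf serum and 100 ng/ml each of IL-3, stem cell factor and Flt3 ligand. After culture the gate was CD31+VE-Cad+PDGFRA−, so that CD45 and CD41 no longer excluded blood cells, and the cells of all times were combined in 3 pools (A, B and C) for 10x Genomics 3′ sequencing. All groups share the adult cardiac source from female mice of 12 to 16 weeks.

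The cell barcodes carry a suffix of 1, 2 or 3 that separates 3 libraries. No label ties a suffix to a pool or a cell to a time, and the matrix was therefore treated as 1 sample. Values are given for each library to show their spread, and all intervals cover counting error only. The Mpo cells had a median of 43,983 UMIs, against 35,438 in C1qb cells and 33,966 in cells with neither gene. Depth differed more between libraries than between classes, with medians of 44,231.5, 17,747.5 and 72,201 UMIs for the Mpo cells of libraries 1, 2 and 3. In all libraries together 13 barcodes occurred in more than 1 library, and 1 Mpo cell carried such a barcode.

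Neutrophils arise from progenitors that first fill primary (azurophil) granules with myeloperoxidase and serine proteases. Later they fill secondary (specific) and tertiary granules with antimicrobial proteins and proteases. Transcripts of the primary granule proteins mark the promyelocyte and its precursors and decline as the nucleus matures, and C/EBPε is needed for the step to secondary granules. C1q, in contrast, is made by macrophages. In the embryo, progenitors of this kind form in the yolk sac and the fetal liver, and in the adult in the marrow.

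The plot of Mpo against C1qb shows the limits that the rule drew. Library 1 contributed 84 Mpo cells, library 2 70 and library 3 49, which were 14.0%, 10.9% and 15.03% of the cluster 5 cells of these libraries. Mpo ran from 4.03 to 88.6 UMIs per 10,000 over the 203 cells, with a median of 13.2. C1qb reached 0.878 at most, so that no Mpo cell came near the upper limit for C1qb. The limit for Mpo ran through a continuum, and C1qb cells had up to 3.69. Just inside it, 18 Mpo cells had between 4.03 and 4.95 UMIs per 10,000 of Mpo, with Prtn3 at 8.18 and Ms4a3 at 1.35 in their summed UMIs. A single cell of library 1 held 120 of the 124 Ms4a3 UMIs, and without it Prtn3 was at 6.42 and Ms4a3 at 0.0463. Just outside it, 29 cells had between 3.01 and 3.99, with Prtn3 at 5.43 and Ms4a3 at 0.0216. The 4 cells with both genes were all of library 2 and had a median of 10,180.5 UMIs. Outside cluster 5, Mpo reached 4 in 9 cells of cluster 2, 3 cells of cluster 6, 1 cell of cluster 0 and 1 cell of cluster 3.

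**Figure D1:**
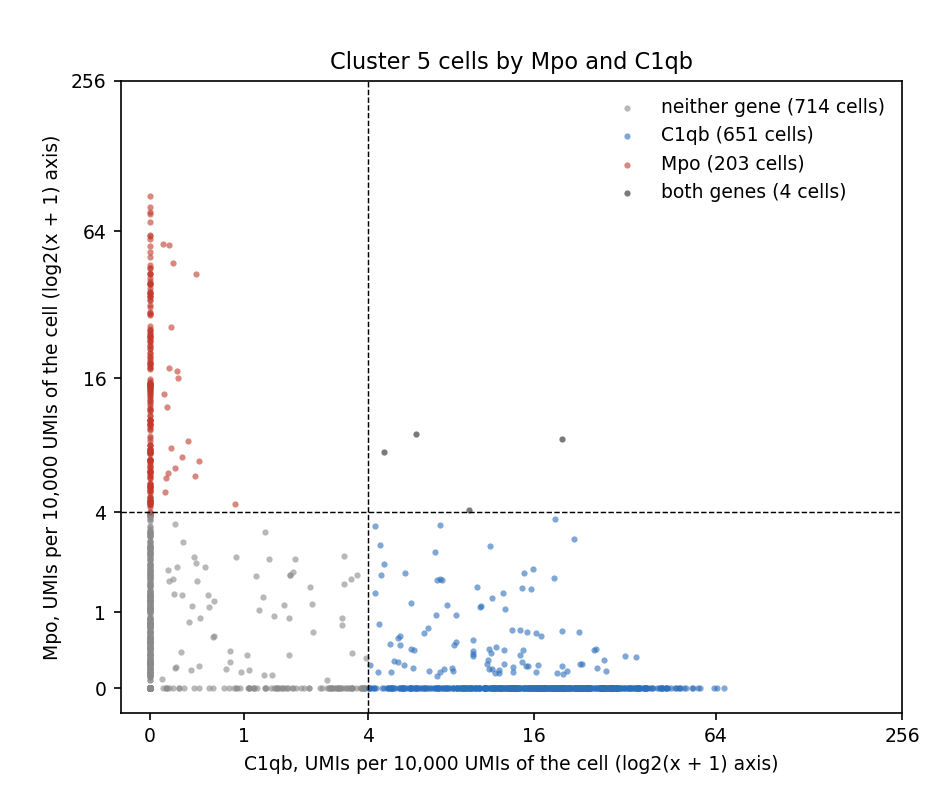
Each point is 1 of the 1572 cells of cluster 5, with C1qb on the x axis and Mpo on the y axis, both in UMIs per 10,000 UMIs of the cell on log2(x + 1) axes, and dashed lines mark the limits of 4. The 203 Mpo cells sit along the left edge, the 651 C1qb cells along the bottom edge, and 4 cells lie above both limits.

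Of the 4 markers used to name the cells, Mpo, Prtn3 and Elane set the Mpo cells apart from both other classes and Myb from the C1qb cells only. Mpo, the peroxidase that makes hypochlorous acid, was at 18.2, 16.8 and 18.3 UMIs per 10,000 in the summed Mpo cells of libraries 1, 2 and 3. In C1qb cells it was at 0.182, 0.0853 and 0.114 and in cells with neither gene at 0.731, 0.654 and 0.726, as the rule required. Prtn3, the serine protease proteinase 3, was at 23.4, 17.7 and 19.6 in Mpo cells, at 1.38 to 1.63 in C1qb cells and at 1.85 to 2.64 in cells with neither gene. Every library of Mpo cells lay above every library of the other classes. A Prtn3 UMI was found in 202 of the 203 Mpo cells, with a median of 11.96 and a maximum of 101.4 UMIs per 10,000. Detection alone was not particular to them, since 52.4% of C1qb cells and 68.3% of cells with neither gene had a Prtn3 UMI as deposited. With all cells thinned to an equal depth, the shares were 92.1% of Mpo cells, 29.5% of C1qb cells and 37.6% of cells with neither gene.

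Elane, neutrophil elastase, was far less even. It was at 2.68, 2.26 and 1.99 UMIs per 10,000 in the 3 libraries of Mpo cells and between 0.0034 and 0.0331 in the libraries of the other classes. Only 81 Mpo cells had an Elane UMI and 23 had 4 or more per 10,000, and the 10 cells with most Elane UMIs held 67.8% of them. At an equal depth of 5,000 UMIs per cell, Elane was found in 19.3% of 202 Mpo cells (exact binomial interval 14.1 to 25.4) and in 3 of 650 C1qb cells. It was found in 0 of 712 cells with neither gene. A limit of 3 cells allows a share of up to 0.421% of cells with a UMI at that depth. The exact binomial interval reaches 0.517%. As deposited, 1.96% of cells with neither gene and 39.9% of Mpo cells had an Elane UMI. In cluster 2, the largest endothelial cluster, the share was 0.167%. Myb, a transcription factor of immature blood cells, was at 1.19 UMIs per 10,000 in Mpo cells (exact Poisson interval 1.12 to 1.26), at 0.0970 in C1qb cells and at 1.15 in cells with neither gene. The log2 ratio of Mpo cells to cells with neither gene was 0.04 for Myb (interval −0.06 to 0.14). The label of granulocyte progenitor-like cells thus rested on Mpo and Prtn3 in nearly all members and on Elane in a minority.

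The promoters of these genes, and of Ms4a3, whose product occurs in granule-forming myeloid cells, are shown as 4 of the genes that were at least 4-fold higher in Mpo cells than in both other classes. The windows run from 250 bases before to 50 bases after the start of the gene in RefSeq (GRCm38.p6). They are chr11:87793534-87793833 on the plus strand for Mpo, chr10:79879417-79879716 on the plus strand for Prtn3, chr10:79886062-79886361 on the plus strand for Elane and chr19:11640802-11641101 on the minus strand for Ms4a3. Capitals mark the letters GAGGAA, bound by PU.1 (Spi1) and other ETS factors, and TTGCNNAA, a form of the C/EBP site, each searched on both strands.
Mpo: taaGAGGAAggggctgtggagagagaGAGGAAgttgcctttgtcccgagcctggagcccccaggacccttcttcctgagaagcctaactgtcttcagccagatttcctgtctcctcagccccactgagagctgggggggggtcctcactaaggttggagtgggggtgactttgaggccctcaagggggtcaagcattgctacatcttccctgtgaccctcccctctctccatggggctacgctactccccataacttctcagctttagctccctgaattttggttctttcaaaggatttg
Prtn3: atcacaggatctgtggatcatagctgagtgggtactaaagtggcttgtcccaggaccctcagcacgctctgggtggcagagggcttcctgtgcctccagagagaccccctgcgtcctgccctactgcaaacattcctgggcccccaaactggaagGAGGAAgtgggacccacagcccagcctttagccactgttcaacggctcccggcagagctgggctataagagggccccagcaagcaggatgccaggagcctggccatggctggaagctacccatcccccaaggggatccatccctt
Elane: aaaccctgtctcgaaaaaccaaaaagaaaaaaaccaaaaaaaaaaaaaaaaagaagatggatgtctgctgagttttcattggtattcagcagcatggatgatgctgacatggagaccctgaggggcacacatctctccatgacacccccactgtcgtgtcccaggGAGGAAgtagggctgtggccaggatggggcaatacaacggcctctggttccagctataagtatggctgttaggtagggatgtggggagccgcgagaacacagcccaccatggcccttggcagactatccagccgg
Ms4a3: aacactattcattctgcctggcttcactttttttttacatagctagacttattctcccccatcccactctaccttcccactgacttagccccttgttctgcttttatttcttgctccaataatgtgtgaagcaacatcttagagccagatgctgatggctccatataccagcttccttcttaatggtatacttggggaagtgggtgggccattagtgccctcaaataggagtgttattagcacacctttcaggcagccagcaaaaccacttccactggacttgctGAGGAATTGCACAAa
The promoters of 7 further genes, Camp, Ctsg, Ngp, S100a8, S100a9, Hdc and Cpa3, were searched and are not shown. GAGGAA was found in all 4 windows shown, in 6 of the 11 searched and in 28.3% of the 32,851 RefSeq windows of the same length. Its first base lay at −247 and −224 in Mpo, −95 in Prtn3, −85 in Elane and 35 in Ms4a3, counted from 0 at the first base of the gene. TTGCNNAA was found in Ms4a3 only among the 4, directly after GAGGAA, in 3 of the 11 and in 10.8% of all windows. AACNG, the core letters of the MYB site, was found in Mpo, Prtn3 and Elane, in 10 of the 11 and in 80.3% of all windows. TGNGGT of RUNX factors and AGATAA of GATA factors were in none of the 4 and in 3 and 2 of the 11, against 45.8% and 11.2% of all windows. Camp, Ngp, S100a9 and Hdc, which were also at least 4-fold higher in Mpo cells than in both other classes, lacked GAGGAA in this window. These are matches of letters and no measure of binding.

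Across all genes, a gene was counted as different between 2 classes when its summed level differed at least 4-fold, reached 1 UMI per 10,000 in the higher class and differed in the same direction in each library. A gene that reached this level in 1 class only could therefore be counted as higher in that class alone. Of 1831 genes at that level, 32 (1.75%) were higher in Mpo cells than in C1qb cells and 62 (3.39%) were lower. Against cells with neither gene, 22 of 1741 genes (1.26%) were higher and 14 (0.804%) were lower. Mpo is 1 of the 32 and of the 22, and C1qb is 1 of the 62, as the rule required. Of the 32 and 22 higher genes, 20 were common to both comparisons, which share the Mpo cells. The 10 genes with the largest ratios over C1qb cells were Camp, Ngp, Ms4a3, S100a9, Hdc, Prg2, Perp, S100a8, Elane and Gm5483. Over cells with neither gene they were Ngp, Camp, S100a8, S100a9, Prg2, BC100530, Gm5483, Elane, Stfa1 and Pglyrp1. BC100530, Gm5483 and the Stfa genes are near-identical members of the stefin A family, and reads could be split among them, so that their single values are uncertain.

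Primary granule genes summed to 82.0, 76.1 and 75.7 UMIs per 10,000 in the 3 libraries of Mpo cells, to 21.8 in C1qb cells and to 15.3 in cells with neither gene. The list includes Ctsc and the chaperone gene Calr, which is also in the list for protein folding. Their levels, given below, made up most of the sum in C1qb cells, and Calr alone a large part of it in cells with neither gene. Of the 12 genes of this list, 8 reached the minimum level, and 6 of these were at least 4-fold higher than in C1qb cells and also than in cells with neither gene, beside the 1.75% and 1.26% of all genes. The 6 were Mpo, Elane, Prtn3, Ms4a3, Serpinb1a and Srgn. The median log2 ratio of the 12 genes was 5.93 over C1qb cells and 2.81 over cells with neither gene, while the medians over all genes with a ratio were 0.00 and −0.12. Mpo itself, which defined the cells, is 1 of the 12.

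Ms4a3 was at 2.83, 2.08 and 1.37 UMIs per 10,000 in the Mpo cells of libraries 1, 2 and 3. It was at 0, 0.00348 and 0 in C1qb cells and at 0.124, 0.00862 and 0.143 in cells with neither gene. The lowest library of Mpo cells lay above the highest library of the other classes. Serpinb1a, an inhibitor of neutrophil serine proteases, was at 1.94 in Mpo cells, 0.0697 in C1qb cells and 0.358 in cells with neither gene. Srgn encodes serglycin, the proteoglycan core on which granule proteins are packed. It was found in 198 of the 203 Mpo cells and was at 8.48, 9.03 and 8.13 in their 3 libraries, against 0.836 to 1.05 in C1qb cells and 1.47 to 1.85 in cells with neither gene. The protease gene Ctsg was sparse, with UMIs in 13 Mpo cells. The 10 cells with most of them held 98.96%, and the gene was at 0.305 in Mpo cells and at 0 in C1qb cells. Ctsc, whose product activates the granule proteases, was lower in Mpo cells (3.12) than in C1qb cells (7.30). Calr, a chaperone of the endoplasmic reticulum that binds immature myeloperoxidase, was found in all 203 Mpo cells at 20.2, against 11.8 and 7.70 in the other classes, a log2 ratio of 0.77 (interval 0.75 to 0.80) and 1.39 (1.37 to 1.42).

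**Figure D2:**
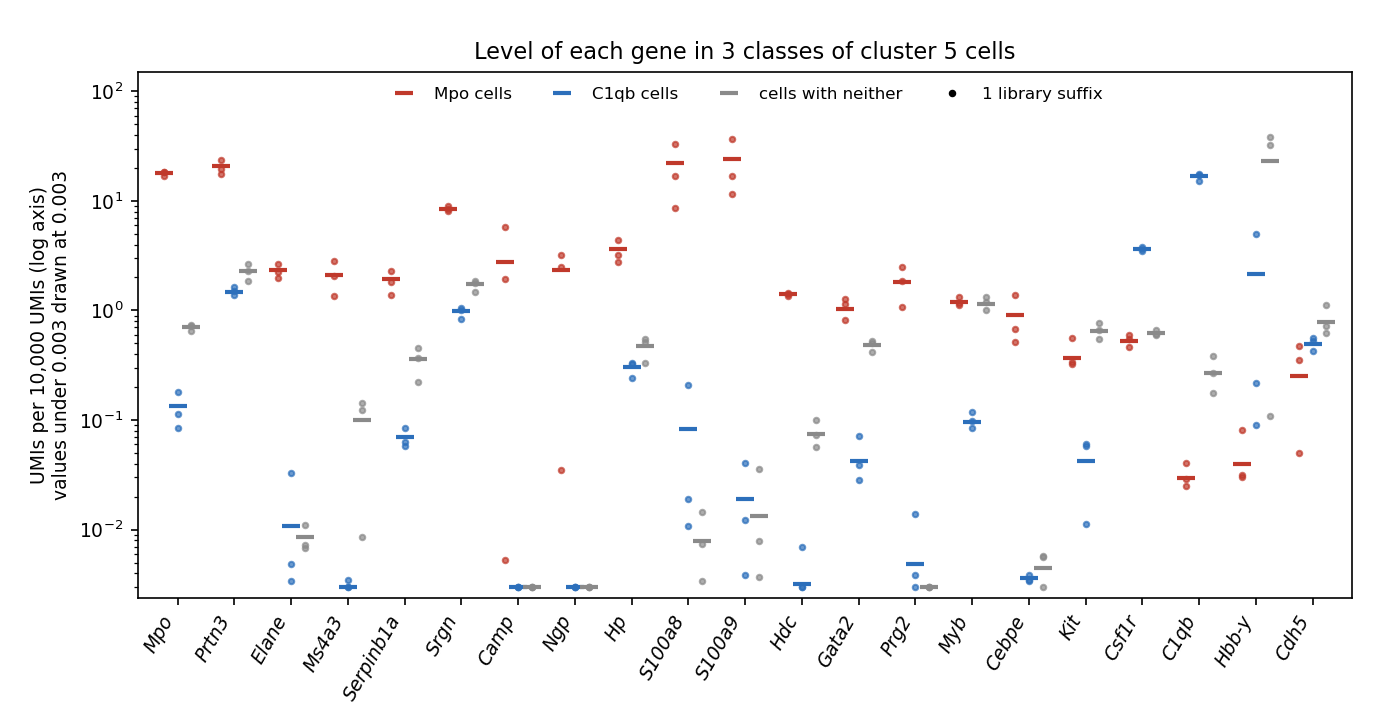
Level of 21 genes in UMIs per 10,000 UMIs on a log axis, as a short horizontal line for the summed cells of each class of cluster 5 and a dot for each of the 3 libraries. Mpo, Prtn3, Ms4a3, Serpinb1a and Srgn in Mpo cells lie above every library of the other classes, whereas Myb and Kit lie near the cells with neither gene and Camp and Ngp differ widely between libraries.

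Secondary and tertiary granule genes came from few Mpo cells. Among 11 secondary granule genes, 4 reached the minimum level and Camp, Ngp and Hp were higher than in both other classes, beside 1.75% and 1.26% of all genes. Camp, the cathelicidin precursor, was at 5.82, 1.93 and 0.0053 UMIs per 10,000 in libraries 1, 2 and 3 of the Mpo cells, and Ngp, neutrophilic granule protein, at 3.23, 0.0348 and 2.49. The level of both thus depended on the library, and Camp UMIs were found in 14 and Ngp UMIs in 11 of the 203 cells. Hp, haptoglobin, was spread more widely, with UMIs in 144 Mpo cells and a level of 3.64, against 0.306 in C1qb cells and 0.478 in cells with neither gene. Lyz2, lysozyme of neutrophils and macrophages, was at 2.49 in Mpo cells and 3.57 in C1qb cells. Of 15 genes of tertiary granules and mature neutrophils only S100a8 and S100a9, which form calprotectin, reached the minimum level. S100a9 was at 36.4, 11.48 and 16.7 in the 3 libraries of Mpo cells and at 0.0408 or below in those of the other classes. It was found in 34 Mpo cells, and 10 cells held 94.0% of its UMIs. Retnlg, a marker of mature neutrophils, had no UMI in Mpo cells, and Ly6g and Mmp9 had 1 and 2 UMIs among 203 cells.

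Of the granulocyte and monocyte transcription factors, 17 of 18 were in the table and 6 reached the minimum level against C1qb cells, of which Myb was higher and Maf, a macrophage factor, was lower. Against cells with neither gene, 4 reached it and none differed 4-fold. The shares of all genes were 1.75% higher and 3.39% lower in the first comparison, and 1.26% and 0.804% in the second. Spi1, which encodes PU.1, was at 3.499 in Mpo cells, 4.74 in C1qb cells and 2.07 in cells with neither gene. Cebpa, needed to form granulocyte–monocyte progenitors, was at 0.497, 0.221 and 0.0744 in the same order, below the minimum level. As deposited, a Cebpa UMI was found in 60.6% of Mpo cells, 41.9% of C1qb cells and 16.4% of cells with neither gene. With all cells thinned to an equal depth, these shares were 14.4%, 10.8% and 2.53%. Cebpe was at 1.38, 0.685 and 0.519 in the 3 libraries of Mpo cells and at most 0.00575 in those of the other classes. Its UMIs were in 64 Mpo cells. Gfi1, a repressor that favours granulocytes, was at 0.0592 in Mpo cells and at 0.178 in cells with neither gene, a log2 ratio of −1.59 (interval −2.01 to −1.18). Irf8, which favours monocytes, was at 0.889, 1.83 and 0.750 in the 3 classes.

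Among the 14 cytokine receptor genes, 2 reached the minimum level against C1qb cells. Only Csf1r of these was at least 4-fold lower, beside 3.39% of all genes, and none was higher, beside 1.75%. Csf1r, the receptor for the macrophage growth factor CSF1, was lower in Mpo cells (0.531 against 3.65, log2 ratio −2.78, interval −2.91 to −2.65) and close to cells with neither gene (0.625). Csf2rb, the common β-chain of the receptors for IL-3, IL-5 and GM-CSF, was found in 144 Mpo cells and was at 0.768, against 0.298 in C1qb cells and 0.165 in cells with neither gene, both below the minimum level. Csf3r, the G-CSF receptor, was at 0.325, 0.221 and 0.139. Epor, the erythropoietin receptor, was at 0.0169 in Mpo cells and 0.260 in cells with neither gene.

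Of the 22 stem and progenitor genes, 5 reached the minimum level against C1qb cells, and Myb, Gata2 and Adgrg1 were at least 4-fold higher in Mpo cells, beside 1.75% of all genes. The median log2 ratio of the list was 1.35. Against cells with neither gene 6 reached it and none differed 4-fold, beside 1.26% of all genes higher and 0.804% lower. There 4 of the 22 ratios were positive and the median was −0.85, while 35.9% of all genes were positive and their median was −0.12. Kit, the stem cell factor receptor, was at 0.371 in Mpo cells, 0.0423 in C1qb cells and 0.643 in cells with neither gene. Cd34 was at 2.43, 1.004 and 2.49. Hlf and Mecom, factors of haematopoietic stem cells, were at 0.0412 and 0.0518 in Mpo cells and at 0.313 and 0.262 in cells with neither gene.

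**Figure D3:**
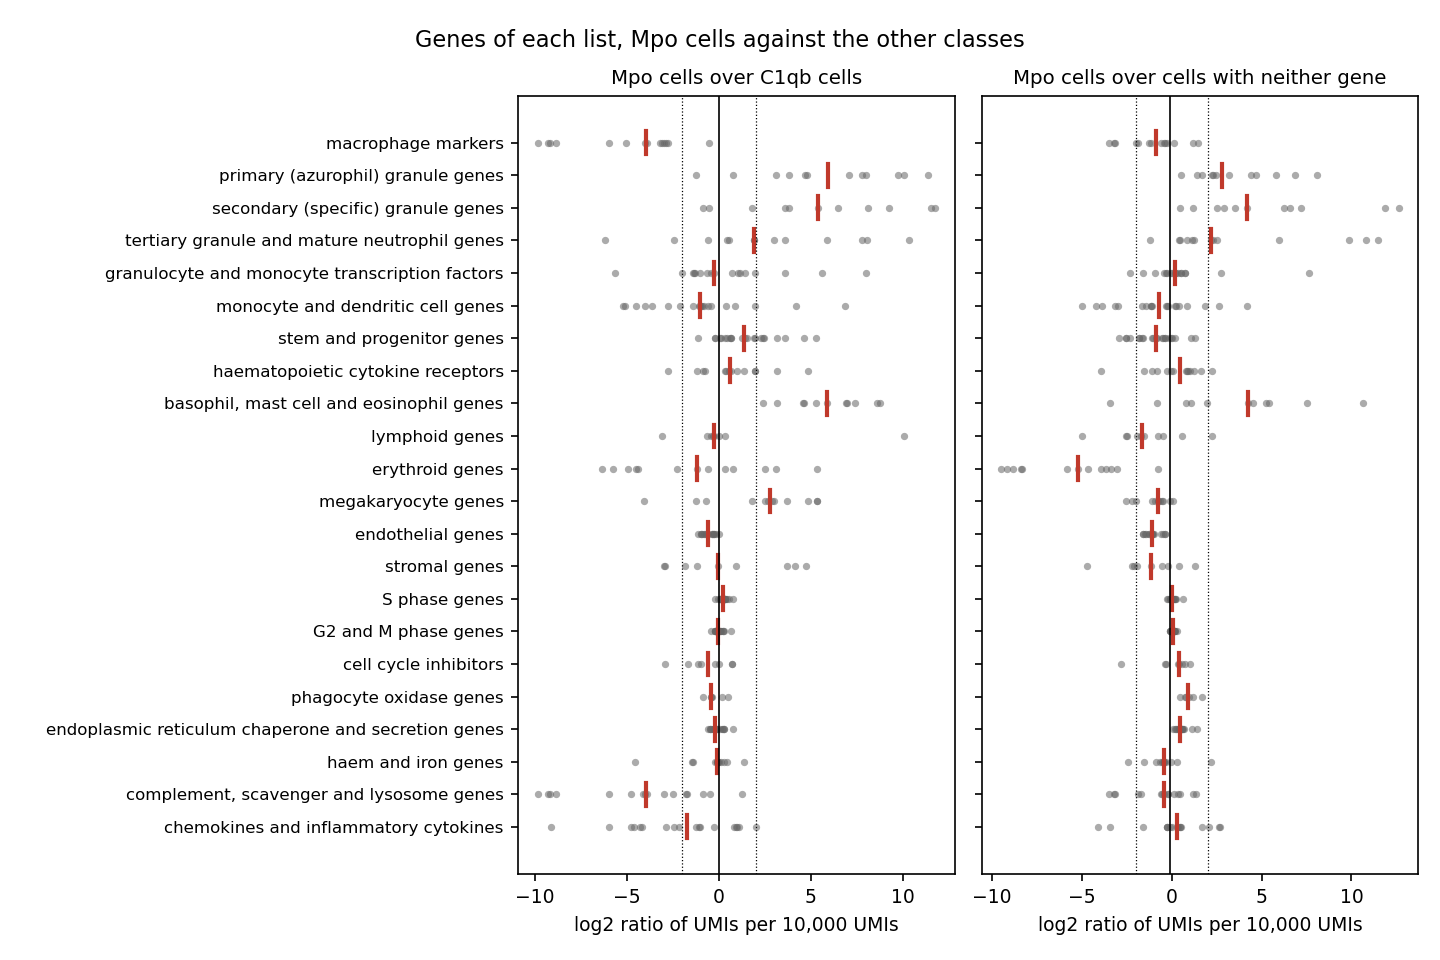
Log2 ratio of summed UMIs per 10,000 UMIs, Mpo cells over C1qb cells (left) and over cells with neither gene (right), with a dot for each gene of 22 lists, a red bar for the list's median, a solid line for the median of all genes and dotted lines at 4-fold. The medians of the primary granule genes are 5.93 and 2.81, those of the macrophage markers −3.95 and −0.88, and those of the erythroid genes −1.18 and −5.20; genes without a UMI in 1 class were set to 3 UMIs.

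Of 13 genes of basophils, mast cells and eosinophils, 3 reached the minimum level. Gata2, Prg2 and Hdc were at least 4-fold higher than in C1qb cells, beside 1.75% of all genes, and Prg2 and Hdc were also higher than in cells with neither gene, beside 1.26%. Gata2 was at 1.04 in Mpo cells and 0.488 in cells with neither gene. Hdc, the enzyme that makes histamine, was even across libraries at 1.44, 1.41 and 1.36 UMIs per 10,000. It was at most 0.00696 in the libraries of C1qb cells and 0.0992 in those of cells with neither gene. Hdc UMIs were found in 93 Mpo cells and 31 had 4 or more per 10,000. Cpa3, a protease of mast cells and their precursors, was at 0.539 in Mpo cells and 0.137 in cells with neither gene and was found in 53 cells. In the 203 cells, the mast cell genes Tpsb2 and Cma1 had no UMI and 6 UMIs, and the basophil gene Mcpt8 had 10. Levels of Prss34, Ms4a2, Fcer1a and Alox15 are not given here, and 12 of the 13 genes had UMIs in Mpo cells.

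Macrophage genes were low. Of 14 macrophage markers, 12 reached the minimum level and 11 were at least 4-fold lower in Mpo cells than in C1qb cells, with C1qb among them by choice. The summed level of the list was 6.58 to 8.09 in the libraries of Mpo cells, 74.1 to 85.6 in those of C1qb cells and 7.59 to 9.03 in those of cells with neither gene. C1qa and Mrc1, the mannose receptor, had 8 and 7 UMIs in all Mpo cells. Ctsb and Lgmn, lysosomal proteases, were at 0.812 and 0.104 in Mpo cells and at 12.02 and 6.58 in C1qb cells, and Hmox1, which breaks down haem, was at 0.181 and 4.25. Of 16 complement, scavenger and lysosome genes, some of which are also macrophage markers, 12 reached the minimum level and 10 were lower than in C1qb cells, beside the 3.39% of all genes. Of 20 monocyte and dendritic cell genes, 6 reached it and F13a1, Csf1r, Ly86 and Cx3cr1 were lower. All 3 chemokine genes that reached it, Ccl2, Ccl3 and Ccl4, were lower. These 3 reached it in C1qb cells only, so that they could be counted in this direction alone. Against cells with neither gene, 2 of the 14 macrophage markers reached the minimum level. Neither of the 2 differed 4-fold, beside 1.26% of all genes higher and 0.804% lower.

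Globin genes made up 6 of the 14 genes that were lower in Mpo cells than in cells with neither gene. Of 13 erythroid genes 6 reached the minimum level and all 6, Hba-a1, Hba-a2, Hbb-bt, Hbb-bh1, Hbb-y and Hba-x, were at least 4-fold lower, beside 0.804% of all genes. All 6 reached that level in cells with neither gene only, so that they could be counted in this direction alone. Hbb-y, the embryonic β-type globin, was at 0.0303, 0.0812 and 0.0318 in the libraries of Mpo cells and at 32.3, 38.1 and 0.108 in those of cells with neither gene. Few cells carried these UMIs. Of the 714 cells with neither gene, 12 had 4 or more Hbb-y UMIs per 10,000, and 10 cells held 99.5% of its UMIs. At 5,000 UMIs Hbb-y was found in 7.44% of cells with neither gene and 2.97% of Mpo cells, and in library 3 in 3.82% and 4.08%. The summed erythroid level of cells with neither gene was 66.8, 78.3 and 3.36 in the 3 libraries. Reads of the near-identical genes Hba-a1 and Hba-a2 can be split between them. The haem enzyme Cpox (0.317 against 1.69), the growth inhibitor Cdkn1c (0.179 against 1.25), and H19 and Igf2, a pair of imprinted genes of embryonic tissue (0.531 against 2.74 for H19 and 0.683 against 3.46 for Igf2), were lower as well. Alas1, the housekeeping enzyme that starts haem synthesis, went the other way at 0.939 in Mpo cells, 0.363 in C1qb cells and 0.207 in cells with neither gene, just under the minimum level.

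Genes of cell division were at similar levels in the 3 classes. None of the 12 S phase genes and none of the 16 G2 and M phase genes that reached the minimum level against C1qb cells differed 4-fold, nor did the 11 and 16 against cells with neither gene. Of all genes, 1.75% were higher and 3.39% lower than in C1qb cells, and 1.26% and 0.804% than in cells with neither gene. The medians of the S phase list were 0.22 and 0.04 on the log2 scale and those of the G2 and M list −0.05 and 0.07. Top2a was at 3.99, 3.70 and 3.87 UMIs per 10,000 and was found in 199 of 203 Mpo cells. When the 202 Mpo cells with 5,000 UMIs or more were split at the median of G2 and M phase UMIs, Mpo was at 19.7 in the upper and 15.8 in the lower set, Prtn3 at 23.0 and 18.2, Ms4a3 at 2.56 and 1.54, and Elane at 3.41 and 0.988. Few cells held most of the Elane UMIs, as given above. S100a9 was at 40.9 in the upper and 3.19 in the lower set. The few cells with S100a8 or S100a9, described below, were higher in Mpo, Prtn3, Ms4a3 and Elane, and their part in this split was not tested.

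Genes for protein folding and secretion summed to 82.0 UMIs per 10,000 in Mpo cells, 83.4 in C1qb cells and 51.4 in cells with neither gene. Of 18 such genes, 15 reached the minimum level against C1qb cells and 14 against cells with neither gene, and none differed 4-fold. Of all genes, 1.75% were higher and 3.39% lower in the first comparison, and 1.26% and 0.804% in the second. All 18 ratios over cells with neither gene were positive, with a median of 0.48, beside 35.9% of all genes with a median of −0.12. Over C1qb cells 6 of 18 were positive, with a median of −0.19, beside 50.1% of all genes with a median of 0.00. The 6 genes of the phagocyte oxidase, which makes superoxide, were likewise all positive against cells with neither gene, with a median of 0.88. Over C1qb cells 2 of the 6 were positive, with a median of −0.40. In each comparison 4 of the 6 reached the minimum level and none of these differed 4-fold, beside the same shares of all genes. Ncf1 was at 1.21, 1.55 and 0.540 in Mpo cells, C1qb cells and cells with neither gene.

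The Mpo cells were not alike, as the plot of single cells shows. After their values had been seen, the cells were split at the same limit of 4 UMIs per 10,000 of other genes. Of the 203 cells, 17 had S100a8 or S100a9 at this level, 12 had the eosinophil granule gene Prg2, 1 had both, and 173 had neither. The S100a8 and S100a9 cells were 9, 5 and 3 from libraries 1, 2 and 3, with a median of 37,772 UMIs, and the Prg2 cells were 3, 8 and 1, with a median of 6,799. Depth therefore moved with the Prg2 cells, and its part in their profile was not tested.

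In the 17 S100a8 and S100a9 cells, 61 of 1785 genes (3.42%) were at least 4-fold higher than in the 173 other cells and 9 (0.504%) were lower. S100a8 and S100a9, which chose the cells, were left out of these counts. Camp and Ngp were at 37.3 and 31.6 UMIs per 10,000 and had no UMI in the 173 cells, which puts the log2 ratios at 13.38 or more and 13.14 or more. Lcn2, an iron-binding protein of secondary granules, was at 9.98 against 0.0280, Fcnb, ficolin B, at 2.86 against 0.0257, and Elane at 21.6 against 0.771. Mpo and Prtn3 were higher too, at 40.6 against 15.6 and 65.8 against 17.2. Cebpe was found in all 17 cells and was at 6.92 against 0.282. Without library 1, Camp was at 9.45 and Cebpe at 4.50 in these cells, and Camp was at 0.0867 in the 3 cells of library 3 and Ngp at 0.489 in the 5 cells of library 2. The lower genes were Adgrg1, Ckb, Hmga2, Dnmt3b, Gata2, Oaf, Mns1, Fos and Jun. Adgrg1, an adhesion receptor of progenitors, was at 0.0991 against 1.55 (0.170 without library 1 and 0.0631 without library 3), and Hmga2, a chromatin protein of fetal and progenitor cells, at 0.326 against 2.62. Kit was at 0.0991 against 0.396, below the minimum level. Top2a (4.50 against 3.95) and Mki67 (3.88 against 2.45) showed that division genes were present in both sets.

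In the 12 Prg2 cells, 35 of 1937 genes (1.81%) were at least 4-fold higher than in the 173 other cells and 23 (1.19%) were lower, with Prg2 left out. The genes with the largest ratios were Epx, Prg3, Gm8113, Il5ra and Syne1. Epx, eosinophil peroxidase, was found in 11 of the 12 cells at 2.52 against 0.00117, Prg3, a homologue of Prg2, in all 12 at 29.1 against 0.0210, and Il5ra, the receptor subunit for IL-5, in 4 at 1.23 against 0.0257. Epx rested on 39 UMIs and Il5ra on 19, and Il5ra was at 0.575 without library 1 and at 1.87 without library 2. Cebpe was at 6.84 against 0.282. Mpo was at 35.7 against 15.6 in the 173 cells, but this depended on the library. It was at 24.83 without library 1, and 338 of its UMIs were in the 3 cells of library 1. In the 8 cells of library 2 Mpo was at 16.96, against 15.59 in the library 2 cells of the 173. In the 1 cell of library 3 it was at 41.38. Prtn3 was lower at 8.77 against 17.2. Hdc was at 6.84 against 1.29, with 78 of its 106 UMIs in the 3 cells of library 1. It was at 3.22 without library 1 and at 1.36 in the 8 cells of library 2. Camp, Ngp, Irf8 and Csf1r had no UMI in these 12 cells.

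At 5,000 UMIs per cell, Hdc was found in 67 and Irf8 in 41 of the 202 Mpo cells, and both in 1 cell, which was 1.49% of the Hdc cells and 2.44% of the Irf8 cells. Of the 28 cells with Csf1r, 2 had Hdc, 5 had Gata2 and 2 had Cpa3, and of the 41 cells with Irf8, 4 had Gata2 and 2 had Cpa3. Among all 202 cells, 33.2% had Hdc, 30.7% Gata2, 20.3% Irf8, 19.8% Cebpe, 13.9% Csf1r and 12.9% Cpa3. Spearman's rho at 5,000 UMIs was −0.11 for Gata2 with Csf1r and −0.07 for Cpa3 with Csf1r. Hdc occurred together with Gata2 in 33 cells, or 49.3% of the Hdc cells and 53.2% of the 62 Gata2 cells. Elane occurred with Cpa3 in 0 cells, where 39 cells (19.3% of all 202) had Elane and 26 (12.9%) had Cpa3. Of the 53 cells with Ms4a3, 31 had Cebpe and 1 had Csf1r. Across the 203 cells as deposited, Spearman's rho was 0.72 between Elane and Prtn3 and −0.50 between Irf8 and Hdc, and it was 0.55 and −0.32 at 5,000 UMIs. These describe cells that share libraries and depth, and no significance is attached to them.

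**Figure D4:**
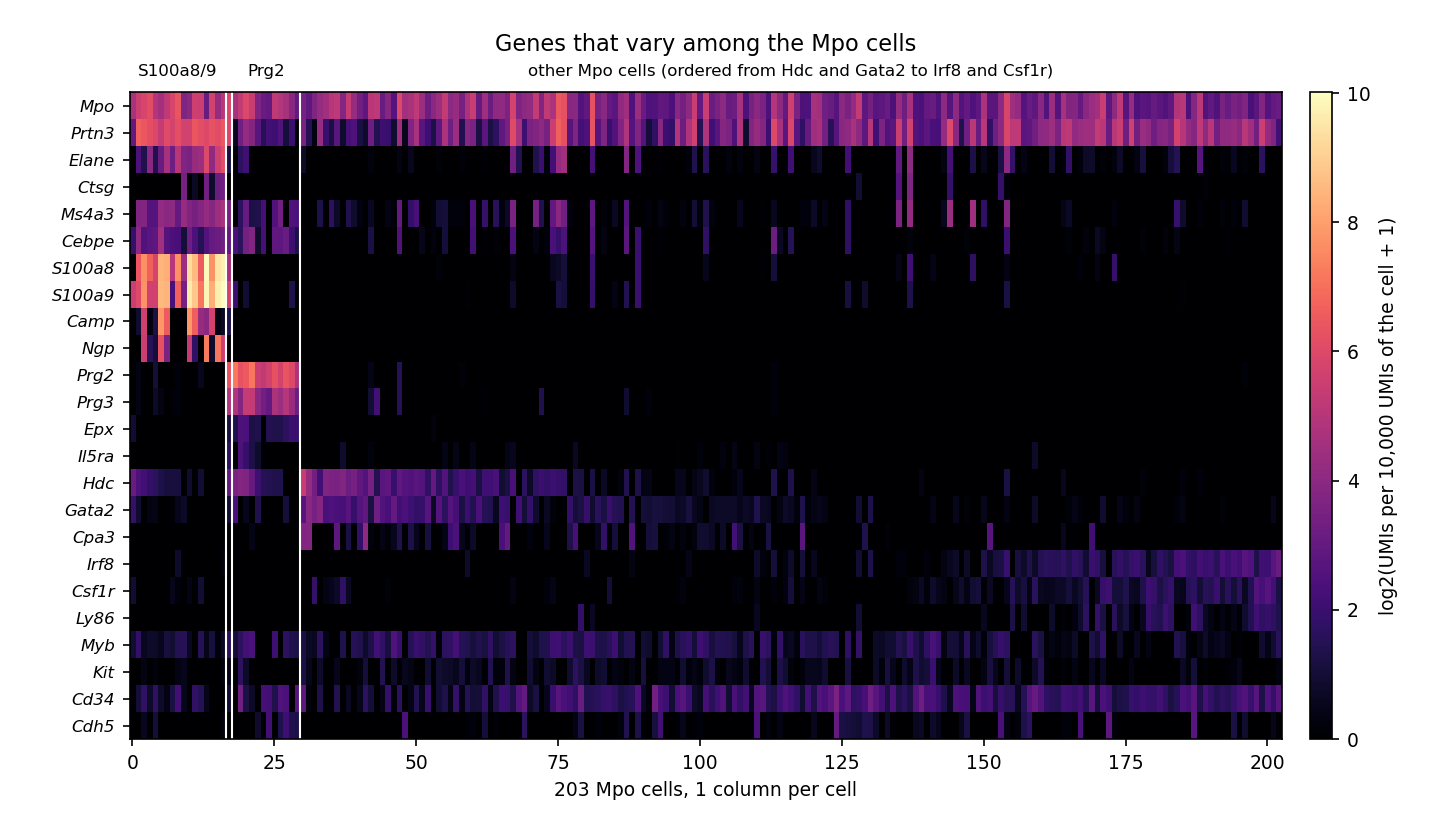
Log2 of UMIs per 10,000 UMIs of the cell plus 1 for 24 genes (rows) in the 203 Mpo cells (columns), with the 17 S100a8 or S100a9 cells, the 1 cell with both, the 12 Prg2 cells and the 173 other cells, ordered from high Hdc and Gata2 to high Irf8 and Csf1r, from left to right. Mpo and Prtn3 run through nearly all columns. Camp and Ngp are seen in the first block, and Camp but not Ngp in the cell with both. Prg3 and Epx are seen mainly in the Prg2 block, and Hdc and Irf8 mostly occupy different columns.

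The 3 sets contributed unequally to the differences described above. Without the cells at the limit for S100a8, S100a9 or Prg2, 24 genes were at least 4-fold higher than in C1qb cells, of which 22 were among the 32, and 10 were higher than in cells with neither gene, all among the 22. These 10 were Stfa1, Mpo, Ms4a3, Hdc, Prtn3, Perp, Hp, Fcgr3, Srgn and Glipr1. Elane and Serpinb1a were no longer among them, but their log2 ratios over cells with neither gene were still 6.49 and 1.97. Elane was below the minimum level at 0.771, and Serpinb1a was just under 4-fold. Camp and Ngp had no UMI in the remaining cells, and Prg2 was below the minimum level. All 14 genes lower than in cells with neither gene remained. When all Mpo cells were ordered by the sum of S100a8 and S100a9, the upper 68 cells had 16 of 1688 genes (0.948%) at least 4-fold higher than the lowest 68 and 0 (0%) lower. All of the lowest 68, all of the middle 67 and 23 of the upper 68 cells had no UMI of either gene, so that the order among them was arbitrary. Mpo was at 26.4 in the upper, 13.05 in the middle and 14.98 in the lowest set.

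Transcripts of the sort gate and of other lineages were also measured. Pecam1, which encodes CD31, was found at 5,000 UMIs in 31.2% of Mpo cells (exact binomial interval 24.9 to 38.1) and Cdh5, which encodes VE-cadherin, in 14.4% (9.83 to 20.0). Cdh5 was found in 17.2% of C1qb cells, 31.2% of cells with neither gene, 30.5% of cells of cluster 3 and 85.4% of cells of cluster 2. In cluster 4, where Col1a1 of stromal cells was found in 43.6% of cells, Cdh5 was found in 15.04% and Pecam1 in 16.8%. By library, Cdh5 was found in 8.43%, 31.4% and 0% of Mpo cells and in 14.95%, 16.3% and 13.3% of cells of cluster 4, so that the share of Mpo cells was the higher one in library 2 only. Pecam1 was found in a higher share of Mpo cells than of cluster 4 in each library, at 25.3%, 45.7% and 20.4% against 16.8%, 21.3% and 10.0%. As deposited, before thinning, 30.5% of Mpo cells had a Cdh5 UMI and 80.8% a Pecam1 UMI, and 7 cells had Cdh5 at 4 or more per 10,000. Ptprc, which encodes CD45, was found in 32.7% of Mpo cells at 5,000 UMIs, 53.4% of C1qb cells, 23.6% of cells with neither gene and 0.558% of cells of cluster 2. Col1a1 and Pdgfra were found in 0 of 202 Mpo cells at this depth. A limit of 3 cells allows a share of up to 1.49% of cells with a UMI at that depth. The exact binomial interval reaches 1.81%. As deposited, 1.48% and 0.493% of Mpo cells had a UMI of these genes.

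The 15 endothelial genes together were at 5.17, 8.85 and 2.80 UMIs per 10,000 in the Mpo cells of libraries 1, 2 and 3, at 5.39 to 8.56 in those of C1qb cells and at 64.1 in clusters 0 to 2. All 15 had UMIs in Mpo cells. Only 1 reached the minimum level in each comparison and was not past 4-fold, and the other 14 could not be counted. The median log2 ratio of the 15 was −0.60 over C1qb cells, with 1 ratio positive. Over cells with neither gene it was −1.10, with 0 positive. Of all genes, 50.1% and 35.9% were positive, with medians of 0.00 and −0.12. The level moved with depth. The 35 Mpo cells under 15,000 UMIs, of which 32 were of library 2, had a summed endothelial level of 20.8, and the 168 deeper cells 4.34. Mpo was at 18.1 and 18.0 in these sets and Prtn3 at 14.4 and 21.1. Leaving out the 35 cells left the counts of genes past 4-fold against both other classes at 32, 62, 22 and 14. The part of depth in the endothelial level was not tested. Lymphoid genes summed to 0.966 and stromal genes to 0.120 in Mpo cells, with 10 of 15 and 10 of 10 genes detected, and Pf4, a platelet factor that was also found in C1qb cells, was at 0.148 against 2.53.

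**Figure D5:**
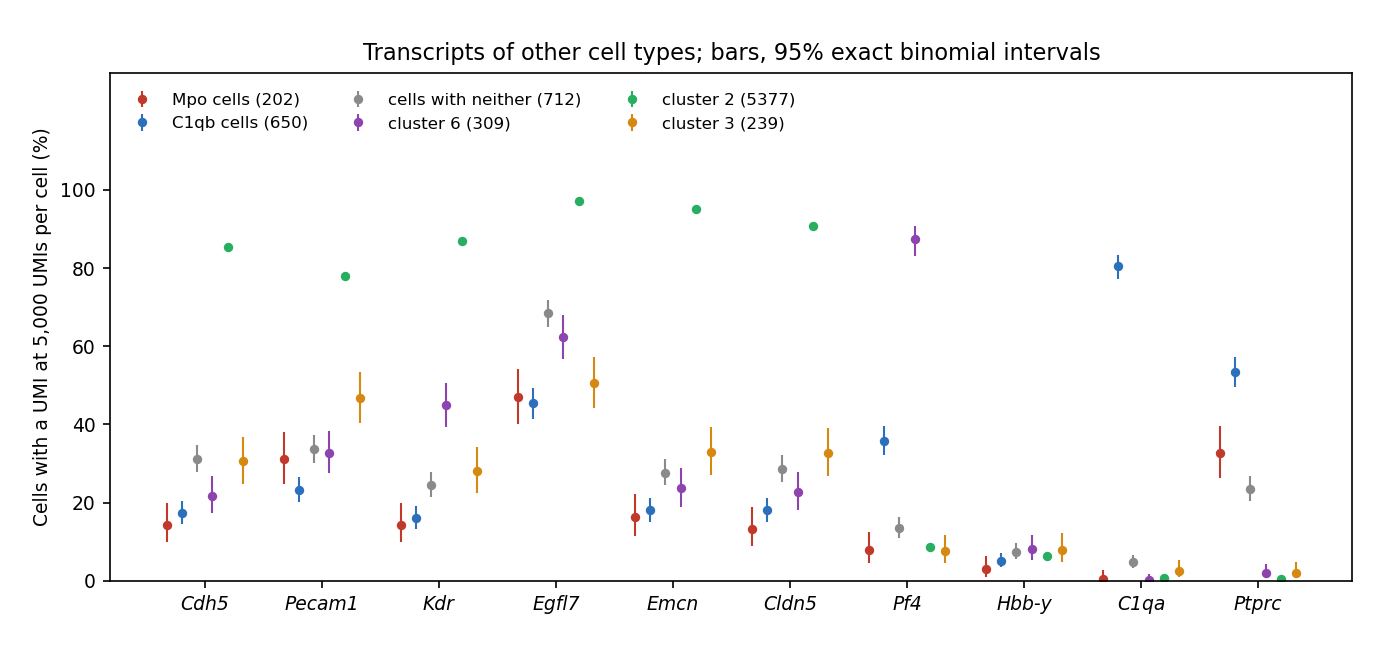
Percentage of cells with at least 1 UMI of 10 genes after each cell was thinned to 5,000 UMIs, for 3 classes of cluster 5 and for clusters 6, 2 and 3, with 95% exact binomial intervals that cover counting error only and the number of cells in brackets. For Cdh5, Emcn and Cldn5 the Mpo cells lie at 13.4 to 16.3%, near the C1qb cells and below cluster 3, and for C1qa they lie near 0.

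Against all 7990 cells outside cluster 5, whose median was 19,438.5 UMIs, 82 of 2021 genes (4.06%) were at least 4-fold higher in Mpo cells and 170 (8.41%) were lower. The largest ratios were those of Ngp, Camp, BC100530, Elane, S100a9, Stfa1, Mpo, Ms4a3, S100a8 and Prtn3, all chosen by or clustered on these counts. Mpo was at 0.0194 in clusters 0 to 2, 0.0358 in clusters 3 and 4 and 0.0771 in cluster 6, where Prtn3 was at 0.248. Among the genes lower in Mpo cells were Pf4, Hbb-y, Cldn5, Mest, Cdkn1c and the collagen chaperone Serpinh1. Cdkn1c, for example, was at 0.179 in Mpo cells, 3.88 in clusters 0 to 2 and 7.22 in clusters 3 and 4.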

How the data were processed

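UMI counts per gene and cell were deposited by the authors without normalization. Reads had been aligned to mm10 (GRCm38) and processed with Cell Ranger 3.1.0, which aggregated the libraries with batch-effect removal, and the submitters' notes also name Seurat 3.1.5. The study's methods keep singlets with at least 5,000 UMIs; 90 of the 9562 cells lay below, and no doublet caller was run here. Cluster numbers (other values), made with the Leiden algorithm, and UMAP coordinates (a score without unit) were also deposited by the authors, and the coordinates and the normalized table were not used. Of 27,998 genes, 27,645 were named from GENCODE M21 and equal names were summed (4 names), leaving 27,994.

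Levels are summed UMIs per 10,000 UMIs, with exact Poisson intervals. Ratios have exact conditional binomial intervals (95%). A class without UMIs was set to 3. Shares were computed after thinning to 5,000 UMIs (seed 1), unless given as deposited. No test was made, because the classes were chosen on the same counts and cells could not be tied to pools or times. Functions were tested on simulated data. The software was numpy 2.4.6 and scipy 1.17.1 for the statistics and matplotlib 3.10.9 for the plots, under Python 3.11.15 with pandas 2.3.3. Named genes were the 4 markers, list members past 4-fold (otherwise the highest 2 of the list) and the 10 largest ratios per direction; others were named after their values were seen. The members and gene lists were chosen with earlier results of these data known. Promoters of 11 genes were found in the RefSeq table, of which 4 are printed. The splits by S100a8, S100a9 and Prg2 were chosen after seeing the data. One detail of the mice is not reported here.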

Additional observations from a re-analysis of the deposited data

How the results depend on the processing

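With limits of 2 and 8 UMIs per 10,000 in place of 4, the Mpo cells made up 17.6% and 8.46% of cluster 5, and leaving out 1 library gave 12.3% to 14.3%. With a minimum level of 0.1 UMIs per 10,000, 168 genes were at least 4-fold higher and 263 lower than in C1qb cells, and 84 higher and 82 lower than in cells with neither gene. With a 2-fold limit these counts were 55, 143, 56 and 34. Leaving out the S100a8, S100a9 and Prg2 cells, an alternative chosen after seeing the data, gave 10 genes higher than in cells with neither gene in place of 22. The other alternatives left the 4 counts within 1.5 times. Without 1 library they were 30 to 33, 59 to 64, 21 to 23 and 11 to 14. The median log2 ratio of the primary granule genes over C1qb cells was 5.72 and 6.69 with limits of 2 and 8, 6.16 as a mean over cells, 5.20 at 5,000 UMIs, 5.93 without Mpo cells under 15,000 UMIs, 5.38 without the S100a8, S100a9 and Prg2 cells and 5.59 to 5.99 without 1 library. Elane was found in 39.9% of Mpo cells as deposited, in 19.3% at 5,000 UMIs, in 26.6% above 0.5 UMIs per 10,000 and in 32.8% to 48.9% without 1 library. Medians near 0 changed sign. That of the stromal genes over C1qb cells (−0.07) became 0.47 with a limit of 2, 0.26 as a mean over cells, 0.364 at 5,000 UMIs and −0.262 to 0.971 without 1 library, with the highest value without library 2. That of the G2 and M genes (−0.05) became 8.8e-05 as a mean over cells and 0.01997 at 5,000 UMIs, and that of the cell cycle inhibitors (−0.58) 0.0379 at 5,000 UMIs. That of the lymphoid genes (−0.29) was −0.665 to 0.0672 without 1 library, with the highest value without library 3. The causes were not tested. Of 189 single levels under alternatives, 126 moved beyond their counting interval. A level has no sign, so that none could be reversed. Of 198 list medians under alternatives, other than those of the primary granule genes, 30 moved beyond their interval and 8 changed sign. No paired analysis was possible because the classes were chosen on these counts and no result comes from a test. The 3 classes are set side by side within each library in place of it.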
